A study of Mus musculus with 6 samples.

Results

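The genes of oxidative phosphorylation were measured as messenger RNA in splenic natural killer (NK) cells of mice with a changed form of heat shock factor 1 (HSF1). They were taken from the deposited count table by symbol, as the subunits of NADH dehydrogenase (complex I), succinate dehydrogenase (complex II), the cytochrome bc1 complex (complex III), cytochrome c, cytochrome c oxidase (complex IV) and ATP synthase (complex V). Symbols holding "-ps" were left out, but 4 members that the annotation calls processed pseudogenes (Ndufb4c, Ndufa11b, Ndufs6b and Cox6c2) match by symbol and are included in the counts below. This gave 102 of the 55291 genes in the table, of which 89 are encoded in the nucleus and 13 in the mitochondrial genome. Among the 102 symbols, 93 had enough counts to be tested, 82 of them nuclear and 11 mitochondrial.

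In this pathway, electrons from NADH and succinate pass through complexes I and II to ubiquinone, then through complex III and cytochrome c to complex IV, where oxygen is reduced to water. The protons pumped on the way drive ATP synthesis in complex V. Most subunits are encoded in the nucleus and imported, while a small set of core subunits is transcribed and translated inside the mitochondrion. In NK cells, oxidative phosphorylation is a source of ATP at rest, and its use increases when the cells are activated.

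The tested mice carried the S303/7A form of HSF1, in which serines 303 and 307 of the protein are replaced by alanine, and the series text calls such mice HSF1-enhanced. The other mice were wild type (WT), and all were studied at steady state, with no infection, tumour or drug named for these samples. As limits of the groups, the labels give no age, sex or strain, the exchange is not said to be limited to NK cells, and each library came from a single mouse. There were 3 libraries per genotype, S303/7A 5, 6 and 7 and WT 1, 2 and 3, made from cells enriched with DX5 beads and sorted as CD49b+ CD3e-.

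Total counts were 43189163, 43676820 and 47248039 in the S303/7A libraries and 62667303, 53845572 and 72736406 in the WT libraries, so depth differed with genotype. Hsf1 itself, whose 2 exchanged codons cannot be seen in gene counts, was at 67.0, 42.2 and 76.9 CPM (counts scaled to library size) in S303/7A and at 83.2, 104 and 108 CPM in WT. The fold was -0.67 ± 0.22 on the log2 scale (SE), S303/7A over WT, with adjusted p = 0.386 by edgeR's quasi-likelihood test. The 10 NK cell markers summed to between 25410 and 26311 CPM in S303/7A and between 24072 and 27809 CPM in WT, and Itga2, which encodes CD49b, averaged 274 ± 45.4 CPM in S303/7A and 302 ± 19.5 CPM in WT. Markers of other blood cells were low. Their sums were apart between the genotypes for platelet, basophil and erythroid markers and overlapped for the other lists. The 9 platelet markers summed to 158 to 210 CPM in S303/7A against 298 to 335 CPM in WT, and 0 of the 9 had a log2 fold above 0. The 8 basophil markers summed to 199 to 297 CPM in S303/7A against 329 to 670 CPM in WT, again with 0 of 8 above 0. The erythroid markers summed to 9.42 to 12.2 CPM in S303/7A against 17.8 to 24.0 CPM in WT, and 3 of the 7 tested had a log2 fold above 0. The 10 T cell markers summed to 529 to 575 CPM in S303/7A and 489 to 622 CPM in WT, with 7 of the 10 above 0. B cell markers summed to 36.0 to 76.0 CPM in S303/7A and 13.7 to 93.1 CPM in WT. Neutrophil markers summed to 4.4 to 10.7 CPM in S303/7A and 8.9 to 35.7 CPM in WT. For monocyte and macrophage markers the sums were 171 to 253 CPM in S303/7A and 204 to 279 CPM in WT. No marker of these lists was at 0 in every library, and the part of other cells in the values below was not tested.

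No gene of oxidative phosphorylation passed the test for a difference between S303/7A and WT NK cells. In edgeR's quasi-likelihood test with Benjamini-Hochberg adjustment over 16480 genes, 0 of the 93 tested members had an adjusted p at or under 0.05, against a background of 60 genes, 0.364% of those tested. At an unadjusted p under 0.05, 1 member passed, the complex III subunit Uqcrq, while 9.68% of all genes passed. This count was 5 without S303/7A 6, 3 without WT 3 and 0 without any 1 of the other 4 libraries. DESeq2 called 0 members and 2.65% of the genes it tested. The share of members that passed was thus below the background share of all genes at the unadjusted threshold, and 0 at both adjusted thresholds.

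The folds were small, and for most members the interval left little room for a large one. The median log2 fold, S303/7A over WT, was -0.01 over the 82 nuclear members, with 38 above 0 and 44 below, and 0.10 over the 11 mitochondrial members, with 7 above and 4 below. Over all genes tested it was 0.01. The 95% interval of the fold lay within 1.5-fold either way (0.585 on the log2 scale) for 83 of the 93 members. Among the 82 members with a mean log2 CPM of at least 4, this held for 81, Uqcrq being the exception, and 0 of the 82 had a fold of 1.5 or more, against 3.26% of the 7627 genes at that level. The median size of the log2 fold among these 82 members, in either direction, was 0.0541, against 0.101 over the 7627 genes, with median SEs of 0.0961 and 0.115. CPM values of the 3 S303/7A and 3 WT libraries failed to overlap for 4 of the 93 members, against 16.0% of all genes tested. The plot of folds by gene shows the same, with points within a narrow band around 0 and the widest intervals at genes of low count.

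**Figure D1:**
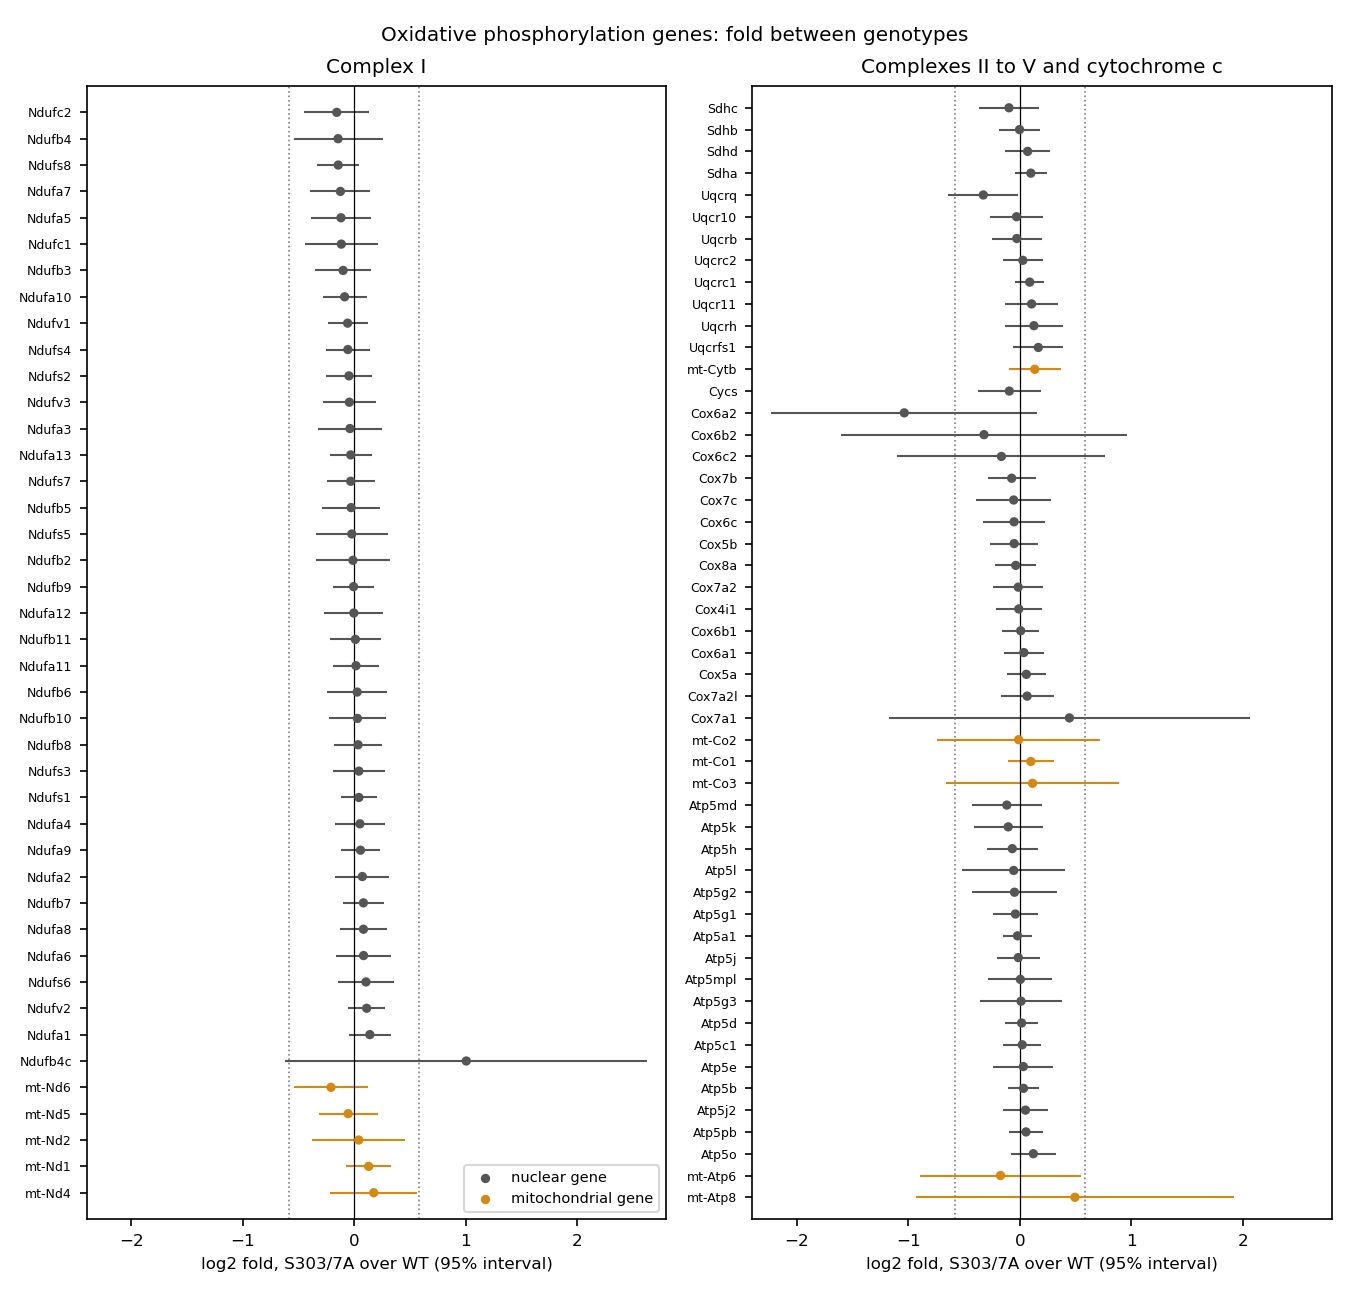
Log2 fold of S303/7A over WT with its 95% interval (x axis) for each of the 93 tested members (y axis), complex I on the left and the others on the right. Dotted lines mark 1.5-fold either way, grey points are nuclear genes and orange points mitochondrial genes, and 83 of the 93 intervals lie between the lines.

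As a share of all counts, the 89 nuclear members took 1.01%, 1.11% and 1.03% in the S303/7A libraries and 1.05%, 1.04% and 1.09% in the WT libraries. The mean was 1.05% ± 0.0550 in S303/7A and 1.06% ± 0.0300 in WT (SD, n = 3 each). The 13 mitochondrial members took 0.554%, 0.460% and 0.474% in S303/7A, and 0.425%, 0.476% and 0.517% in WT, with means of 0.496% ± 0.0505 in S303/7A and 0.472% ± 0.0462 in WT. For both genomes the groups overlapped, and the difference of the means was smaller than the SD of either genotype. These are shares of the RNA in each library, so fewer NK cells in a sort and less of a transcript per cell cannot be told apart, and a change of all mitochondrial RNA per cell along with all other RNA would not show.

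**Figure D2:**
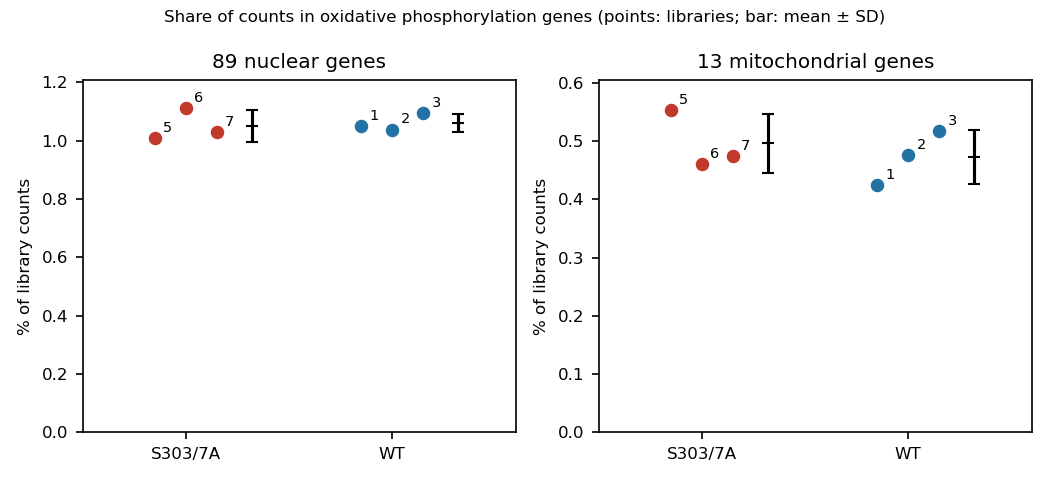
Percentage of each library's counts (y axis, from 0) that fell on the 89 nuclear (left) and 13 mitochondrial (right) members, by genotype (x axis). Points are libraries with their replicate number and bars are mean ± SD, and the S303/7A and WT points overlap in both panels.

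Complex I, the entry point for electrons from NADH, had 40 nuclear members, of which 37 were tested. Their log2 folds had a median of -0.01, with 17 above 0 and 20 below, and 36 of the 37 intervals lay within 1.5-fold. Ndufs8, an iron-sulphur subunit of the arm that reaches into the matrix, was at 104, 116 and 122 CPM in S303/7A, against 125, 129 and 124 CPM in WT. All 3 S303/7A libraries were below all 3 WT libraries, and the log2 fold was -0.14 ± 0.08 (SE, interval -0.33 to 0.04, adjusted p = 0.649 in edgeR's quasi-likelihood test). Ndufv2, which carries an iron-sulphur centre of the NADH-oxidising module, was at 128, 140 and 131 CPM in S303/7A, against 125, 119 and 125 CPM in WT. There the S303/7A libraries were all above the WT libraries, with a log2 fold of 0.11 ± 0.07 and adjusted p = 0.703 in the same edgeR test.

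Among the accessory subunits of complex I, the lowest log2 fold was that of Ndufc2, a membrane arm subunit, at 26.9, 34.7 and 30.5 CPM in S303/7A, against 35.1, 33.2 and 34.3 CPM in WT (-0.16 ± 0.12). The ranges overlapped through S303/7A 6. Ndufa7 and Ndufa5, subunits of the matrix arm, had log2 folds of -0.12 ± 0.12 and -0.12 ± 0.11. The highest fold of a well-counted nuclear subunit of this complex was that of Ndufa1, a small membrane arm subunit encoded on the X chromosome (37187588 to 37191163, GRCm38), at 130, 130 and 132 CPM in S303/7A, against 115, 110 and 130 CPM in WT (0.14 ± 0.08). WT 3 reached the level of the S303/7A libraries, and WT 1 and 2 lay below them. Per kilobase of exon, Ndufa1 was also the most abundant nuclear subunit of the complex, at 297 CPM per kb. Ndufs1, the large iron-sulphur subunit, averaged 145 ± 4.21 CPM in S303/7A and 141 ± 6.41 CPM in WT.

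Ndufa4, named for complex I but known as a subunit of complex IV, averaged 182 ± 13.5 CPM in S303/7A and 175 ± 18.4 CPM in WT. Its relative Ndufa4l2, which is induced by low oxygen in other cells, had 0 counts in all 6 libraries. Ndufb4c, annotated as a processed pseudogene, was the member with the highest log2 fold, 1.00 ± 0.69, at 0.233, 0.186 and 0.257 CPM in S303/7A, against 0.206, 0.0735 and 0.0544 CPM in WT. At this level, the interval ran from -0.62 to 2.63, so that neither a rise nor a fall could be detected. Ndufa11b and Ndufs6b, also annotated as processed pseudogenes, had at most 8 and 10 counts in any S303/7A library and at most 9 and 16 in any WT library, and were not tested.

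Complex II is the enzyme of the citric acid cycle that feeds electrons to ubiquinone, and all 4 of its subunits are nuclear. Sdha, the flavoprotein that oxidises succinate, was at 592, 590 and 604 CPM in S303/7A, against 545, 594 and 528 CPM in WT, with overlap between the genotypes (log2 fold 0.10 ± 0.06, interval -0.05 to 0.25). Sdhb, the iron-sulphur subunit, averaged 209 ± 9.03 CPM in S303/7A and 209 ± 17.0 CPM in WT. The membrane anchors Sdhc and Sdhd had log2 folds of -0.10 ± 0.11 and 0.07 ± 0.09. Per kilobase, Sdhd led the complex at 145 CPM per kb when lengths were the union of all exons, and Sdha led at 199 CPM per kb when lengths were those of the principal coding transcript.

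Complex III held both the member of lowest p and the member with the highest fold among well-counted nuclear genes. Uqcrq (chromosome 11, 53427922 to 53430831, minus strand, GRCm38), a small subunit beside cytochrome b, was at 60.2, 77.9 and 63.3 CPM in S303/7A, against 91.5, 88.3 and 72.9 CPM in WT. S303/7A 6 lay above WT 3, so the genotypes overlapped. The log2 fold was -0.33 ± 0.13 (interval -0.64 to -0.01), and edgeR's quasi-likelihood test gave an unadjusted p of 0.0427, with adjusted p = 0.498. Uqcrfs1, the Rieske iron-sulphur protein that passes electrons to cytochrome c1, was at 109, 130 and 106 CPM in S303/7A, against 106, 101 and 100 CPM in WT. The S303/7A libraries were above the WT libraries by a narrow gap, and the log2 fold was 0.17 ± 0.10 (adjusted p = 0.667, edgeR).

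The other subunits of complex III lay close to 0. Uqcrc1, a core subunit, was at 490, 479 and 500 CPM in S303/7A, against 446, 474 and 460 CPM in WT, without overlap (log2 fold 0.09 ± 0.06, adjusted p = 0.694 in edgeR's test). Uqcrc2, the other core subunit, averaged 133 ± 9.71 CPM in S303/7A and 131 ± 1.33 CPM in WT. The hinge protein Uqcrh and the small subunit Uqcr11 had log2 folds of 0.13 ± 0.11 and 0.11 ± 0.10, and Uqcr10 and Uqcrb both of -0.03 ± 0.10. Per kilobase, Uqcr10 (115 CPM per kb of exon) or Uqcrc1 (287 CPM per kb of principal transcript) was highest, depending on the length used. Cycs, which encodes the cytochrome c that shuttles between complexes III and IV in somatic cells, was at 36.7, 47.4 and 43.4 CPM in S303/7A, against 47.2, 42.5 and 46.3 CPM in WT (log2 fold -0.09 ± 0.12).

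Complex IV has subunits that come in isoforms, and the same ones carried nearly all counts in both genotypes. Cox4i1, the general form of subunit 4, averaged 295 ± 28.1 CPM in S303/7A and 296 ± 19.6 CPM in WT, while the lung form Cox4i2 had 2, 0 and 0 counts in S303/7A and 0, 0 and 4 in WT. Cox6a1 was at 186, 196 and 200 CPM in S303/7A, against 182, 178 and 206 CPM in WT. Cox6b1 averaged 180 ± 9.57 CPM in S303/7A and 179 ± 7.10 CPM in WT, and Cox7a2 97.0 ± 5.14 CPM in S303/7A and 97.9 ± 10.0 CPM in WT. Cox8a, at 227 ± 5.17 CPM in S303/7A and 233 ± 20.7 CPM in WT, was the most abundant nuclear subunit of the complex per kilobase (372 CPM per kb of exon). Cox7b averaged 89.5 ± 4.81 CPM in S303/7A and 94.1 ± 8.42 CPM in WT, and Cox7a2l, known for joining complexes III and IV in supercomplexes, 51.1 ± 5.01 CPM in S303/7A and 48.8 ± 1.01 CPM in WT. The isoforms typical of muscle or testis were near or at 0. Cox7a1 averaged 0.344 CPM in S303/7A and 0.253 CPM in WT, Cox6b2 averaged 0.924 CPM in S303/7A and 1.16 CPM in WT, Cox8b had no count, and Cox7b2 and Cox8c had no count in S303/7A against 6 counts in all and 1 count in all in WT.

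Cox6a2, the heart and muscle form of subunit 6a, had the lowest log2 fold of all members, -1.04 ± 0.51. It was at 1.52, 5.84 and 2.55 CPM in S303/7A, against 8.54, 7.46 and 4.31 CPM in WT, with overlap between S303/7A 6 and WT 3, and did not pass (adjusted p = 0.594, edgeR's quasi-likelihood test). Without S303/7A 6 the log2 fold was -1.73, and without S303/7A 5 it was -0.69. Of its 50-base windows, 3.33% are shared with Itgad, an integrin gene whose exons overlap it. Over complex IV, 15 of 19 nuclear members were tested, with a median log2 fold of -0.04, 5 above 0 and 10 below.

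All 17 nuclear subunits of complex V were tested. The median log2 fold was 0.01, with 9 above 0 and 8 below, and all 17 intervals lay within 1.5-fold. Atp5b, the catalytic beta subunit, was at 1225, 1294 and 1146 CPM in S303/7A, against 1206, 1184 and 1190 CPM in WT (log2 fold 0.03 ± 0.06, interval -0.11 to 0.17), and was the most abundant nuclear subunit of the complex per kilobase, at 285 CPM per kb of exon. Atp5o, the stalk subunit that confers oligomycin sensitivity, had the highest log2 fold of the complex, 0.12 ± 0.09, and Atp5md, a small membrane subunit, the lowest, -0.12 ± 0.13. Several genes encode the same mature c-ring protein with different import signals. Of these, Atp5g3 averaged 147 ± 35.2 CPM in S303/7A and 145 ± 4.12 CPM in WT, Atp5g1 51.7 ± 2.40 CPM in S303/7A and 53.1 ± 1.92 CPM in WT, and Atp5g2 11.5 ± 0.984 CPM in S303/7A and 11.9 ± 1.63 CPM in WT. The level of Atp5g2 is uncertain, since 87.4% of its 50-base windows also occur in other genes, against 11.6% for Atp5g1 and 0% for Atp5g3. The wide spread of Atp5g3 came from S303/7A 6, at 187 CPM beside 130 and 123 CPM in S303/7A 5 and 7.

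The 13 mitochondrial genes fell into 2 blocks by level. The 6 consecutive genes between mt-Co1 and mt-Nd4, which are mt-Co2, mt-Atp8, mt-Atp6, mt-Co3, mt-Nd3 and mt-Nd4l, lay between 0.167 and 2.42 CPM per kb. The other 7 lay between 145 and 1105 CPM per kb. In counts, the 6 genes together had 648 over the 3 S303/7A libraries and 949 over the 3 WT libraries, a share of 0.000484% ± 4.84e-05 in S303/7A and 0.000497% ± 9.94e-05 in WT. So the block was low in both genotypes. It holds core subunits of complex IV (mt-Co2, mt-Co3) and complex I (mt-Nd3, mt-Nd4l) and both mitochondrial subunits of complex V (mt-Atp6, mt-Atp8).

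For 5 of these 6 genes, exact or nearly exact copies are annotated elsewhere in the genome. Of all 50-base windows of mt-Co2, 100% occur in another annotated gene, and of those of mt-Co3, mt-Atp6, mt-Nd4l and mt-Nd3, 99.9%, 99.5%, 98.8% and 98.0%. The copies are unprocessed pseudogenes that lie on the minus strand of chromosome 1 between 24611535 and 24615565 (GRCm38), in the order and, to within 1 base, the spacing of the mitochondrial genes: Gm28661 for mt-Co2, Gm10925 for mt-Atp6, Gm28437 for mt-Co3, Gm28438 for mt-Nd3, Gm10222 for mt-Nd4l and Gm28439 for the first 876 bases of mt-Nd4. Only 43 bases of mt-Atp8, those it shares with mt-Atp6, matched an annotated gene, and it too was low, at 0.909 CPM per kb. Only annotated genes were searched, and the chromosome 1 sequence between Gm10925 and Gm28661 was not read. A copy of mt-Atp8 there would not have been found. The pseudogenes had counts of their own. Over the S303/7A libraries, Gm28437 had 717 counts beside 213 for mt-Co3, and Gm28438 had 583 beside 16 for mt-Nd3. Over the WT libraries, Gm28437 had 904 beside 286 for mt-Co3, and Gm28438 had 705 beside 21 for mt-Nd3.

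The pair of mt-Nd3 and Gm28438 is shown because a single base in 345 aligned bases tells them apart. The pair of mt-Cytb and its processed pseudogene Gm11410 on chromosome 4 is shown because it differs at 81 of 1142 aligned bases. The level of mt-Cytb was high (1038 CPM per kb). Capitals mark the bases that differ within each pair. The mitochondrial sequences are chrM:9459-9518 and chrM:14446-14505, plus strand, and the copies are chr1:24613060-24613119, minus strand, and chr4:80004290-80004349, plus strand, all from GENCODE transcripts on GRCm38.
mt-Nd3: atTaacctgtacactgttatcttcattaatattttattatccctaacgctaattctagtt
Gm28438: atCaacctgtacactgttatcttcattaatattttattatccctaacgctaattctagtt
mt-Cytb: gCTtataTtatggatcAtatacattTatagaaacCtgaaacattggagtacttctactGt
Gm11410: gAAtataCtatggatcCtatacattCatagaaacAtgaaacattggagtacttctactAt
The first pair differs at 1 of the 60 bases shown and the second pair at 7 of them. Whether reads that match several places were dropped, split or assigned is not given in the sources used here, and the part of this step in the low block was not tested. Outside the block, mt-Nd4 and mt-Co1 also shared many windows with other genes, 62.2% and 51.1%, at high levels. The share of such windows was 98.0% to 100% in the low genes other than mt-Atp8, 0% in mt-Atp8 and at most 62.2% in the 7 others. The levels of all genes with shared windows are uncertain.

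**Figure D3:**
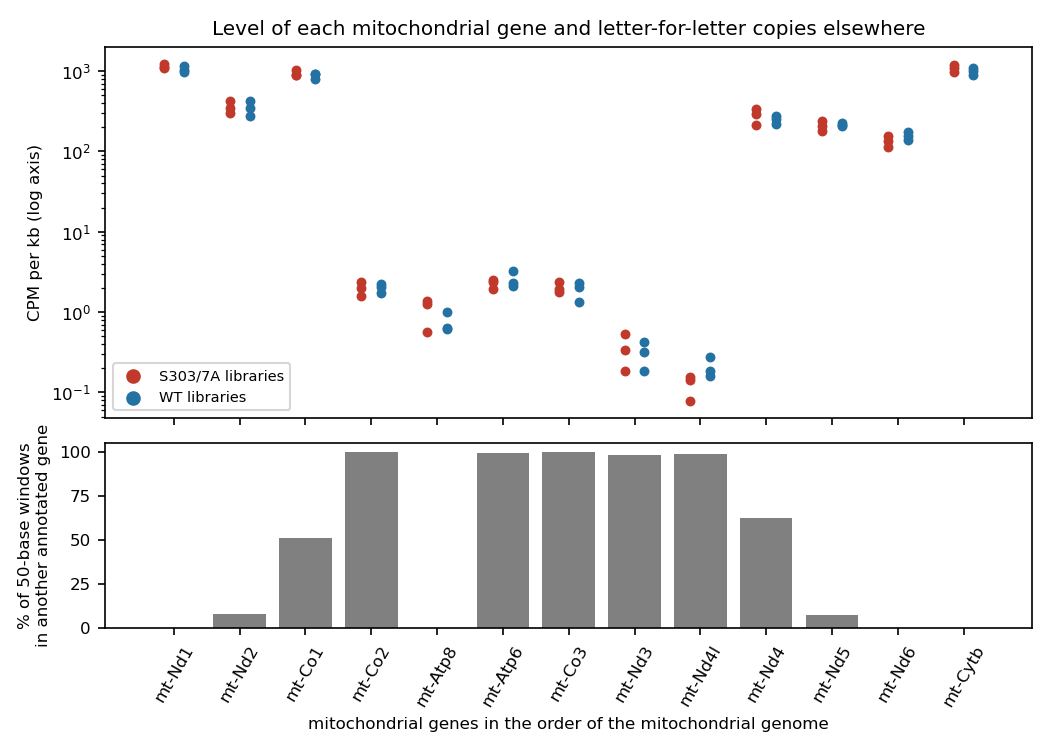
Upper panel: level of each mitochondrial gene in CPM per kb (log axis) in the S303/7A (left, red) and WT (right, blue) libraries, in genome order. Lower panel: percentage of the gene's 50-base windows found letter for letter in another annotated gene, which is 98.0% or more for 5 of the 6 low genes and 0% for mt-Atp8.

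Among the 7 well-counted mitochondrial genes, 5 had log2 folds above 0 and 2 below, and all 7 intervals lay within 1.5-fold. mt-Co1, the catalytic subunit of complex IV, was at 1594, 1375 and 1376 CPM in S303/7A, against 1221, 1412 and 1423 CPM in WT (log2 fold 0.10 ± 0.09). mt-Cytb, the cytochrome b of complex III, was at 1369, 1234 and 1124 CPM in S303/7A, against 1010, 1150 and 1236 CPM in WT (0.13 ± 0.10). For both genes the highest library was S303/7A 5 and the lowest was WT 1, with overlap between the rest.

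The complex I subunits encoded in the mitochondrion are part of its membrane arm. mt-Nd1 was at 1178, 1055 and 1081 CPM in S303/7A, against 923, 987 and 1120 CPM in WT (log2 fold 0.13 ± 0.08). mt-Nd4 was at 464, 298 and 400 CPM in S303/7A, against 299, 348 and 383 CPM in WT (0.17 ± 0.17). mt-Nd2 and mt-Nd5 had log2 folds of 0.04 ± 0.18 and -0.05 ± 0.11. mt-Nd6, the sole mitochondrial member transcribed from the other strand, had the lowest log2 fold of the 7, -0.21 ± 0.14, at 81.7, 58.3 and 69.9 CPM in S303/7A, against 81.3, 71.7 and 89.5 CPM in WT. It overlaps mt-Nd5 at its end. The strand setting is not known, so reads from the opposite strand may be counted in mt-Nd6, and how many was not tested. The smallest adjusted p of the 11 tested mitochondrial genes was 0.724 in edgeR's test, that of mt-Nd1.

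Libraries of the same genotype differed from each other in a pattern shared across the nuclear members. Of the 75 nuclear members with a mean log2 CPM of at least 4, S303/7A 6 was the highest library of its genotype for 64 (85.3%), while over all 7627 genes at that level it was the highest for 40.3%. S303/7A 5 was the lowest of its genotype for 56 of the 75 (74.7%), against 28.6% of all genes. Among the WT libraries, WT 3 was highest for 50 of 75 (66.7%), against 40.2% of all genes.

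Among the S303/7A libraries, the 7 well-counted mitochondrial genes went with a different order. S303/7A 5 was the highest of its genotype for 7 of 7, against 29.85% of all genes at that level. S303/7A 6 was the lowest for 6 of 7, against 32.1% of all genes. WT 3 was the highest of its genotype for 7 of 7, against 40.2% of all genes, and it was also the highest for most nuclear members. The mean log2 CPM over the 75 nuclear genes was 6.52, 6.72 and 6.58 in S303/7A and 6.60, 6.56 and 6.68 in WT, and over the 7 mitochondrial genes 9.15, 8.78 and 8.92 in S303/7A and 8.78, 8.89 and 9.06 in WT. S303/7A 6 combined the highest nuclear and nearly the lowest mitochondrial level, and S303/7A 5 the reverse. The ratio of nuclear to mitochondrial counts, over all 89 nuclear genes and these 7, was 1.82, 2.42 and 2.17 in S303/7A and 2.47, 2.18 and 2.12 in WT, so the genotypes overlapped.

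This spread bears on the sign of the nuclear folds. Without S303/7A 6, 23 of 82 nuclear members had a log2 fold above 0, and without S303/7A 5, 58 of 83, beside 38 of 82 with all libraries. No direction can therefore be read from the count of members above or below 0. The map of deviations shows S303/7A 6 as a row of mostly positive values over the nuclear genes and negative values over the mitochondrial ones.

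**Figure D4:**
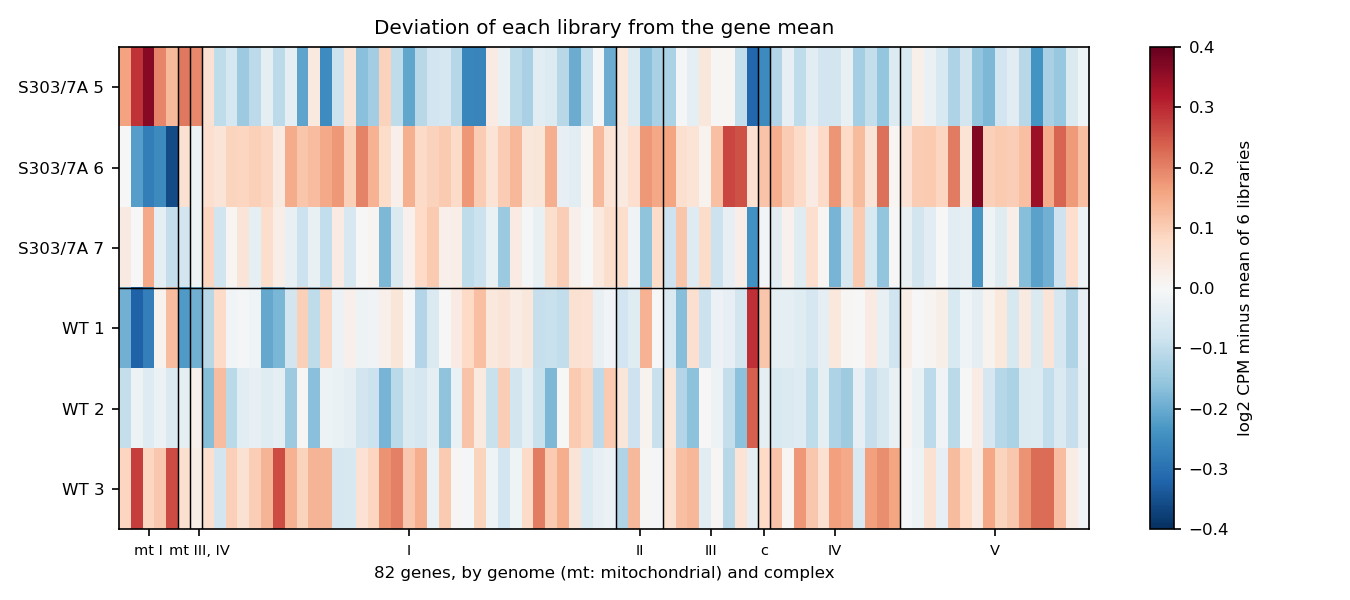
Log2 CPM of each of 82 members in each library minus the gene's mean over the 6 libraries (colour, red above and blue below), with libraries as rows (S303/7A above, WT below) and genes as columns by genome and complex (c: cytochrome c). In S303/7A 6, 64 of 75 nuclear genes are the highest of the genotype, and 6 of the 7 mitochondrial genes at the left are the lowest.

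Promoter sequence was available from RefSeq (GRCm38.p6, from 250 bases before to 50 bases after the start of transcription) for 69 of the 89 nuclear members, all of them matched by symbol. NRF1, GABP (an ETS factor) and YY1 are known activators of nuclear respiratory genes, and their short motifs were searched on both strands. The NRF1 motif GCGCANGCG was present in 21 of 69 promoters (30.4%), against 14.5% of the promoters of tested genes and 7.03% of all promoters. The ETS motif CCGGAAG was present in 17 of 69 (24.6%), against 19.9% and 9.93%, and the YY1 motif AAGATGGC in 10 of 69 (14.5%), against 5.22% and 3.19%. A heat shock element of 3 alternating units, the kind of site that HSF1 binds, was in 0 of the 69 and in 0.662% of all promoters, so these letters are not in those windows.

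The promoters of Cox6a1 (chr5:115348959-115349208, minus strand) and Sdhd (chr9:50603850-50604099, minus strand) are shown as examples that hold both an NRF1 and an ETS motif within the 250 bases before the start. Capitals mark the motifs, and CTTCCGG is the ETS motif read on the opposite strand.
Cox6a1: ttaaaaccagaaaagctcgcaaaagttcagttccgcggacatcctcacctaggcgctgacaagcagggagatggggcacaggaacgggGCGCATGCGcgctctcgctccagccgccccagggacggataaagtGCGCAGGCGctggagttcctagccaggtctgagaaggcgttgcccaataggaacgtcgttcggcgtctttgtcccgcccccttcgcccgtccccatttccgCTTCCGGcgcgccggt
Sdhd: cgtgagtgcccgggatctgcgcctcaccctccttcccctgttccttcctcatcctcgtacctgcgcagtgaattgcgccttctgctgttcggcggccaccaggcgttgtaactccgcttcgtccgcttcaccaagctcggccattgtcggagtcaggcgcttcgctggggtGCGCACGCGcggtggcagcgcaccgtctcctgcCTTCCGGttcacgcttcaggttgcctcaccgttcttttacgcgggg
Cox6a1 had log2 fold 0.04 ± 0.08 and Sdhd 0.07 ± 0.09. The median log2 fold of the 21 members with the NRF1 motif was 0.02, and that of the 46 tested members without it -0.01.

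The transcription factors and coactivators that act on these promoters were measured as a separate list of 17 tested genes, of which 0 were called, 12 had log2 folds above 0 and the median was 0.16. In 4 of the 17 the unadjusted p was under 0.05, which 9.68% of all genes reached. Ppargc1b, a coactivator of mitochondrial biogenesis, was at 9.66, 8.33 and 8.97 CPM in S303/7A, against 4.80, 6.23 and 6.09 CPM in WT, without overlap (log2 fold 0.65 ± 0.18, adjusted p = 0.295 in edgeR's quasi-likelihood test). Nrf1 was at 169, 168 and 160 CPM in S303/7A, against 139, 139 and 156 CPM in WT, also without overlap (0.20 ± 0.07, adjusted p = 0.453, edgeR). The GABP subunits Gabpa and Gabpb2 had log2 folds of 0.31 ± 0.12 and 0.28 ± 0.11. None of the 4 passed the test over all genes.

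The other lists around the pathway had 0 genes called by edgeR as well. By list, over 19 complex I assembly factors the median log2 fold was 0.01, over 36 assembly factors of the other complexes -0.00, over 23 genes of the citric acid cycle and pyruvate dehydrogenase -0.05, over 31 genes of mitochondrial transcription and RNA handling -0.07, over 78 mitochondrial ribosomal proteins -0.01 and over 24 import genes 0.03. The 18 mitochondrial carriers and channels had a median of 0.08. Slc25a20, the carrier that brings acylcarnitines into the matrix for fatty acid oxidation, was at 82.8, 84.9 and 83.5 CPM in S303/7A, against 62.8, 59.9 and 57.1 CPM in WT. Its libraries were well apart, with a log2 fold of 0.48 ± 0.08, and its adjusted p was 0.0726 in edgeR's test and 2.26e-05 in DESeq2.

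Over these lists, which hold 17 to 78 tested genes each, DESeq2 called 4 genes, among them Slc25a20, Tbrg4 and Tmem242. Over all genes it tested, DESeq2 called 2.65%. Tbrg4, which acts on the stability of mitochondrial messenger RNAs, was at 28.7, 22.7 and 23.8 CPM in S303/7A, against 36.6, 49.1 and 37.7 CPM in WT, with a log2 fold of -0.71 ± 0.16 (adjusted p = 0.188 in edgeR, 0.00227 in DESeq2). Tmem242, an assembly factor of ATP synthase, was at 14.6, 12.6 and 20.2 CPM in S303/7A, against 10.6, 8.64 and 7.45 CPM in WT (0.83 ± 0.23, adjusted p = 0.287 in edgeR, 0.0314 in DESeq2). In both genes the libraries of the genotypes did not overlap, which held for 16.0% of all genes tested.

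Among the other genes with the largest well-measured differences in their lists, Ogdh, a subunit of oxoglutarate dehydrogenase, averaged 531 ± 19.8 CPM in S303/7A and 451 ± 25.9 CPM in WT (log2 fold 0.24 ± 0.07, adjusted p = 0.289 in edgeR's test). Sdhaf4, an assembly factor of complex II, averaged 17.3 ± 0.610 CPM in S303/7A and 22.3 ± 1.19 CPM in WT (-0.37 ± 0.12), and Atpaf2, a chaperone of the ATP synthase alpha subunit, 67.2 ± 1.17 CPM in S303/7A and 54.2 ± 6.53 CPM in WT (0.31 ± 0.10). Among the subunits of the enzymes these factors assemble, the 4 of complex II lay between -0.10 and 0.10 and the 17 nuclear ones of complex V between -0.12 and 0.12 (log2 fold). In some listed genes S303/7A 7 stood apart from the other S303/7A libraries. Timm29, an import subunit, was at 69.2 CPM there, beside 9.61 and 9.23 CPM in S303/7A 5 and 6 and 22.1, 14.7 and 6.91 CPM in WT. In the same library the nuclear receptor gene Esrra was at 37.0 CPM, beside 13.1 and 9.49 CPM in S303/7A 5 and 6. Esrra was at 18.5, 14.8 and 10.7 CPM in WT. The ribosomal protein gene Mrps30 was at 30.8 CPM in S303/7A 7, beside 7.77 and 7.91 CPM in S303/7A 5 and 6. In WT, Mrps30 was at 29.3, 16.4 and 12.9 CPM, so WT 1 was close to S303/7A 7.

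**Figure D5:**
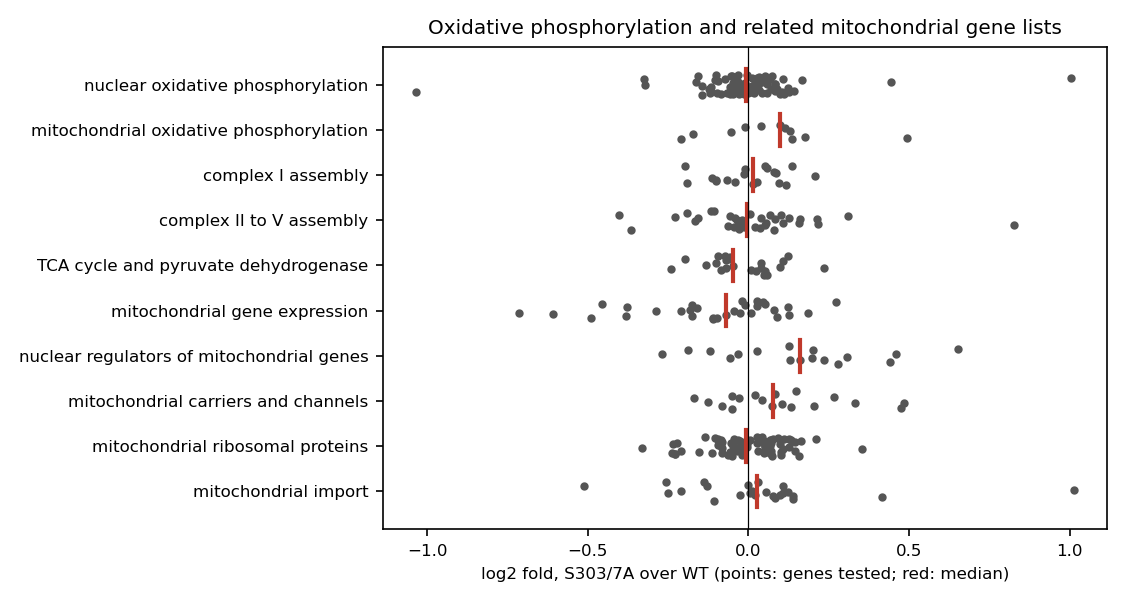
Log2 fold of S303/7A over WT (x axis) for each tested gene (points) of the nuclear and mitochondrial oxidative phosphorylation genes and of 8 related lists (y axis), with the median in red. The medians lie between -0.07 and 0.16, the highest being that of the nuclear regulators.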

How the data were processed

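Bulk RNA-seq libraries (SMART-seq HT) were made from sorted splenic NK cells, 1 mouse each, per the labels' protocols. The authors deposited raw counts per gene. Trimmomatic, STAR, featureCounts and DESeq2 with GRCm38 (mm10) are named per the submitters' processing notes. For versions, annotation release, strand setting and reads that match several places, the sources used here give nothing. The normalized table was not used, and the labels give no batch.

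Genes passing filterByExpr (minimum count 10, minimum total 15; 16480 genes) were scaled by TMM and tested with edgeR 4.0.16 (quasi-likelihood, R 4.3.3), with Benjamini-Hochberg adjustment over all of them and a threshold of 0.05. DESeq2 1.42.0 and limma 3.58.1 (voom) were alternatives, and the scripts were tested on simulated data. Means carry SDs over 3 libraries, and log2 folds carry SEs from the F statistic. The p-values set the difference between genotypes against the spread between mice within a genotype (3 each), moderated over all genes. CPM are TMM-scaled. Read counts limit the precision of genes with few counts, and without molecular identifiers reads are not independent.

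Members were 102 rows chosen by symbol, and 13 matching symbols with "-ps" were left out. Positions and lengths are from GENCODE M21, and copies were sought with 50-base windows and blastn 2.17.0. Named were the 6 highest and 6 lowest folds among members with mean log2 CPM of at least 4, the top gene per kb of each complex, isoform families, all mitochondrial genes, untested members, check genes, and the 2 largest folds of each related list. Sdha, Sdhb, Sdhc, Uqcrb, Uqcrc1, Uqcrc2, Ndufs1, Ndufb4c, Ppargc1b, Nrf1, Gabpb2 and Tmem242 were named after their values were seen. Members and lists were chosen with earlier results of these data known. A result of the related lists is not reported here.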

Additional observations from a re-analysis of the deposited data

How the results depend on the processing

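Under all 13 alternatives 0 members were called, and the smallest adjusted p of a member was 0.263, for Cox6a2 without S303/7A 6. The count over all genes, 60 in edgeR, was 171 with no filter on low counts, 437 in DESeq2 and 38 in limma-voom, and 5 to 57 when 1 library was left out. It stayed between 56 and 61 with other scalings and with libraries thinned to equal totals. The median log2 fold of nuclear members ranged from -0.06 (without S303/7A 6) to 0.04 (without S303/7A 5), and that of mitochondrial members from -0.07 (without WT 1) to 0.20 (without WT 3). Scaling by library totals alone moved the median of all genes from 0.01 to -0.02 and left 28 of 82 nuclear members above 0. Of 636 values of the 49 members tested and named here, 41 had the other sign under an alternative, in 21 genes, none of them called. The lengths used change which gene leads a complex per kilobase. No paired analysis was possible because the genotypes share no replicate number. The 9 untested members and the 6 low mitochondrial genes are limited by their counts.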
